A study of Mus musculus with 2 samples.

Results

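Fabp4 and Fabp5 encode fatty acid-binding proteins, and they were taken by name as 2 of the 17891 genes in a table of single-cell RNA counts of mouse corneal epithelium. They were chosen by their UMI levels in these same libraries, which earlier results had shown to be higher in dry eye, so those levels are given as a description and not as a test. The dry eye library pooled epithelium of 6 right eyes, whose extra- and intra-orbital lacrimal glands had been excised. The control library pooled 7 left eyes, whose glands were left in place. Both pools came from the same 7 animals, C57BL/6J males aged 10 weeks that were killed 9 days after surgery, and 1 right eye injured in surgery was left out. Side of the eye and surgery therefore went together, and no sham operation is described.

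Fatty acid-binding proteins are small cytosolic proteins that hold a fatty acid inside a barrel-shaped fold and carry it between membranes, enzymes and the nucleus. Fabp5 is the epidermal member of the family, abundant in stratifying keratinocytes and known to pass ligands to the nuclear receptor PPARδ, which Ppard encodes. Fabp4 is best known from adipocytes, macrophages and capillary endothelium, where it is a target of PPARγ. The corneal epithelium is a stratified sheet in which limbal stem cells feed dividing transit-amplifying cells, then basal, wing and superficial squamous cells.

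The members lie near each other on chromosome 3. In the GENCODE annotation of the build GRCm38, which is mm10, Fabp5 (ENSMUSG00000027533.10) spans 10012548 to 10016607 on the plus strand. Fabp4 (ENSMUSG00000062515.3) spans 10204088 to 10208576 on the minus strand, 187 kb further on. Among 15 protein-coding genes annotated from 500 kb before Fabp5 to 500 kb after Fabp4, 11 were in the table. Apart from Fabp4, Fabp5 and Fabp12, the other genes there had ratios of dry eye over control between 0.734 (Pag1) and 1.14 (Gm9833). The transcripts of both members could be told apart by sequence, since the longest run of bases shared by Fabp5-201 and Fabp4-201 was 12. Of 938 stretches of 50 bases in Fabp5-201, 198 (21.1%) also occurred in 5 other annotated genes, none of them in the count table. All of these stretches ended by base 500 of 987, and 0 of the 251 stretches within the last 300 bases, nearest the 3′ end that the assay reads, were shared.

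With 1 pooled library per group, differences could not be tested and have no replicate check. Dry eye yielded 16420 cells with 207030777 unique molecular identifiers (UMIs) in all, and control 17465 cells with 191493194. Levels are in CPM, the UMIs of a gene in every 1000000 UMIs of the same cells, which 1 UMI raised by 0.00483 in dry eye and 0.00522 in control. Intervals are exact 95% intervals and, like the floor of 3 counts used where a count was 0, cover counting error only. Cells carry the deposited annotation of 13 classes, with names used here as deposited. An asterisk marks 5 of them, LSC*, TAC1*, TAC2*, Wing* and Squam*, and no source used here says what it means. Starred cells made up 1793 cells (10.9%) of the dry eye library and 172 cells (0.985%) of the control library. A class drawn mostly from 1 library cannot be told apart from that library, so the main values are given with and without starred cells. Cell barcodes found in both libraries numbered 74, and leaving their cells out is among the alternatives tried.

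Fabp5 was detected throughout the epithelium and was higher in dry eye in every class that could be compared. Over all cells it had 588202 UMIs, or 2841 CPM, in dry eye and 78648 UMIs, or 411 CPM, in control, a ratio of 6.92 (6.87 to 6.97). Without starred cells the levels were 1527 CPM in dry eye and 413 CPM in control, a ratio of 3.70 (3.67 to 3.73). Starred cells held 54.0% of the Fabp5 UMIs of the dry eye library, and Wing cells another 26.7%. In control, Wing cells held 74.3%. Of the 4775 genes that reached 100 UMIs in all and 20 CPM in either library, 1.13% were at least 2-fold higher in dry eye and 0.126% at least 2-fold lower, and Fabp5 had the 14th highest ratio.

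Classes were compared where each library had at least 100 cells, which left 8. In LSC, the class named for limbal stem cells, Fabp5 had 5572 CPM in dry eye and 1770 CPM in control, a ratio of 3.15 (3.03 to 3.28). In TAC1, a transit-amplifying class, it had 465 and 108 CPM in dry eye and control, a ratio of 4.32 (4.02 to 4.64). In TAC2, the other unstarred transit-amplifying class, the levels were 2020 CPM in dry eye and 242 CPM in control, a ratio of 8.35 (8.05 to 8.66). The intervals of TAC1 and TAC2 did not overlap, but with starred cells joined to each class the order turned, at 25.4 in TAC1 (23.9 to 26.9) and 17.4 in TAC2 (16.9 to 18.1). Basal cells had 402 CPM in dry eye and 145 CPM in control, a ratio of 2.78 (2.68 to 2.89). Wing cells had 2499 CPM in dry eye and 693 CPM in control, a ratio of 3.61 (3.57 to 3.64). In superficial Squam cells the levels were 461 CPM in dry eye and 73.0 CPM in control, a ratio of 6.32 (6.06 to 6.60). Conj cells, named for conjunctiva, had 878 CPM in dry eye and 323 CPM in control, a ratio of 2.72 (2.65 to 2.79). TAC1* stood apart with 7399 CPM in dry eye and 173 CPM in control, a ratio of 42.7 (37.7 to 48.5). All 8 ratios were above 2.

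Ratios of that size were uncommon in each class. Among genes with at least 50 UMIs and 20 CPM, the share at least 2-fold higher in dry eye was 0.503% in LSC, 0.317% in TAC1 and 5.07% in TAC1*. It was 0.508% in TAC2, 0.301% in Basal, 1.01% in Wing, 1.09% in Squam and 0.221% in Conj. Fabp5 ranked between 3rd of 4735 genes (TAC1) and 18th of 4755 (Wing) by ratio.

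**Figure D1:**
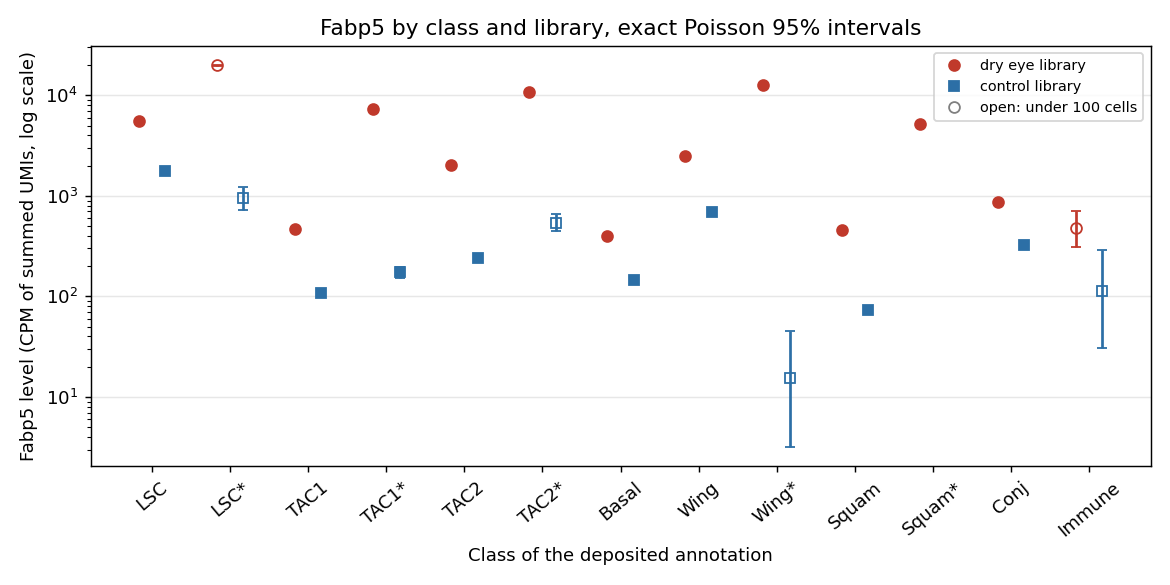
Fabp5 level in CPM of summed UMIs (log axis) for each class of the deposited annotation, with the dry eye library as red circles left of the control library as blue squares, and exact Poisson 95% intervals. Open symbols have under 100 cells, and control has no Squam* cell. Dry eye lies above control in every class with both values, and the starred classes of dry eye reach from 5218 to 19835 CPM.

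The order of the classes was similar at the top in both libraries. Among unstarred classes LSC was highest and Wing next, in dry eye and in control. LSC had 13.9 times the Basal level in dry eye (13.5 to 14.2) and 12.2 times in control (11.6 to 12.9). Basal was lowest in dry eye, whereas Squam was lowest in control. In dry eye the intervals of TAC1 and Squam overlapped, and the wide Immune interval (308 to 714 CPM) also took in Basal. In control the Immune interval (30.8 to 289 CPM) overlapped those of TAC2, TAC1*, Basal, TAC1, Squam and Wing*. Apart from Immune, all other neighbours in the order differed by more than counting error within their library. Counting error leaves out the spread between cells. Control LSC* had 6 cells, of which 1 held 32 of the 59 UMIs, and control Wing* had 12 cells with 3 UMIs. The places of these classes in the control order are therefore uncertain.

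In the dry eye library LSC*, Wing*, TAC2* and TAC1* had the highest Fabp5 levels of all, while Squam* lay below unstarred LSC (5572 CPM). LSC* had 19835 CPM, Wing* 12680 CPM, TAC2* 10907 CPM, TAC1* 7399 CPM and Squam* 5218 CPM. Within dry eye each starred class was above the unstarred class of its name, by 15.9-fold for TAC1* (15.4 to 16.4), 11.3-fold for Squam* (11.1 to 11.5), 5.40-fold for TAC2* (5.33 to 5.47), 5.07-fold for Wing* (5.04 to 5.11) and 3.56-fold for LSC* (3.50 to 3.62). By UMI count, which counts tagged 3′ ends and was not divided by transcript length, Fabp5 stood 2nd among all genes in LSC* and 5th in both TAC2* and Wing*. The few starred cells of control did not share these levels. Their 172 cells together had 418 UMIs of Fabp5, or 221 CPM, and the 12 control Wing* cells had 3 UMIs.

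The limbal markers went both ways in LSC*. Of 7 limbal markers, 3 were lower and 4 higher in LSC* than in LSC of dry eye. The limbal gene Gpha2 had 27.8 CPM in LSC* and 3475 CPM in LSC, and Krt15, a keratin of limbal and basal cells, had 191 CPM in LSC* and 5996 CPM in LSC. Cd63 had 30.3 CPM in LSC* and 112 CPM in LSC. Krt14, also a keratin of basal keratinocytes, had 15945 CPM in LSC* and 5051 CPM in LSC, and Ifitm3 2029 and 1294 CPM. Atf3 had 22.3 CPM in LSC* and 1.64 CPM in LSC, and Mt1 4824 and 1642 CPM. Krt14 was above the LSC level in the other starred classes of dry eye too, from 5155 CPM in Squam* to 9368 CPM in Wing*. Mt1 was highest in TAC2* at 6291 CPM, while Ifitm3 and Atf3 were highest in LSC*. High Krt14 and Mt1 were thus not particular to LSC*, which is named here only as deposited.

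The median cell held more Fabp5 in dry eye in each of the 8 classes compared at full depth. It held 20 UMIs in dry eye and 6 in control in Wing, 1 and 0 in both Basal and Squam, and 2 and 1 in Conj. To compare cells at one depth, each was reduced to 3000 randomly drawn UMIs, and 784 dry eye and 1094 control cells that were shallower dropped out. The median Wing cell then held 5 Fabp5 UMIs in dry eye and 2 in control, and 35.3% of dry eye Wing cells (33.7 to 37.0) lay above the 95th percentile of control, against 3.73% of control Wing cells. The median LSC cell held 10.5 in dry eye and 4 in control, and 33.4% of dry eye cells (29.2 to 37.8) lay above that percentile, against 4.86% in control. In TAC1* 94.2% of dry eye cells (91.6 to 96.1) did so, against 4.51% in control.

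In Basal, Squam and Conj cells the thinned median was 0 in both libraries, too low to show a difference. A thinned Fabp5 UMI was found in 49.4% of dry eye Basal cells, 40.6% of Squam cells and 47.7% of Conj cells, against 27.2%, 13.9% and 37.5% in control. Above the control percentile were 13.6% of dry eye Basal cells, 21.3% of Squam cells and 13.7% of Conj cells, against 3.51%, 3.38% and 4.15% in control. TAC2 had a long tail in dry eye, with a median of 1 UMI and a 95th percentile of 26, against 0 and 3 in control. Of dry eye TAC2 cells, 6.10% (5.01 to 7.34) held at least 20 thinned Fabp5 UMIs, against 0 of 1355 control cells, where 3 cells would make 0.221%. The bar of 20 UMIs was chosen after the values were seen. At that bar TAC1 had 0 of 1114 cells in dry eye, where 3 cells would make 0.269%.

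**Figure D2:**
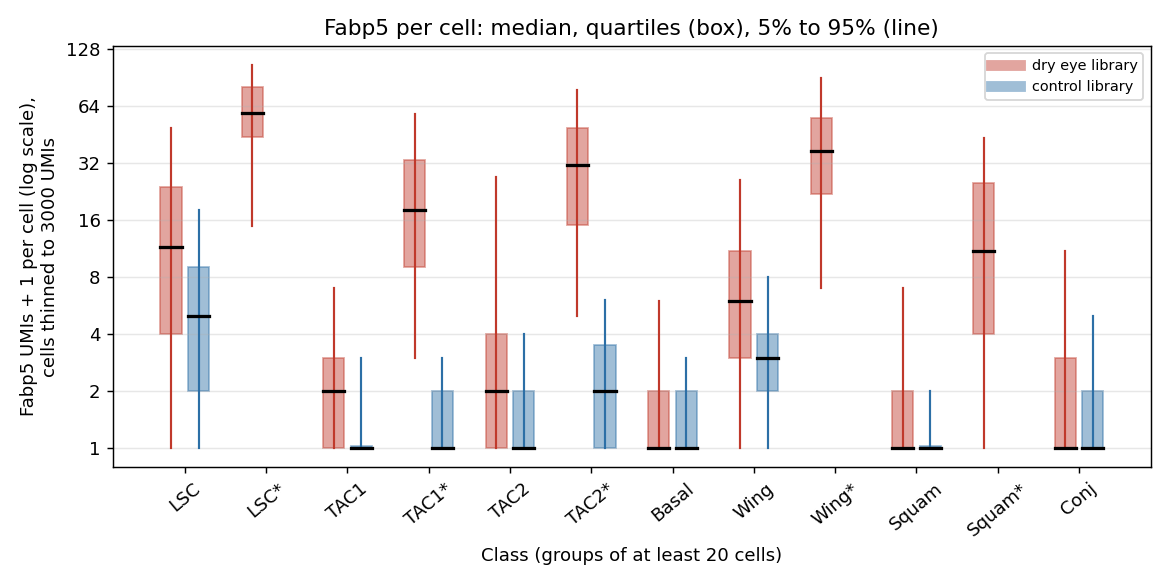
Fabp5 UMIs plus 1 per cell after thinning to 3000 UMIs (log axis), by class, for groups of at least 20 cells, with dry eye in red left of control in blue. Black bars are medians, boxes quartiles and lines the 5th to 95th percentiles. Wing and LSC boxes of dry eye sit higher than those of control, while the thinned medians of Basal, Squam and Conj are 0 in both libraries and their upper lines differ.

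Cells with at least 20 thinned Fabp5 UMIs made up 10.5% of the dry eye library (9.99 to 11.0) and 0.0489% of the control library (0.0211 to 0.0963). Starred cells accounted for 1060 of these 1637 dry eye cells, and unstarred cells for 577. Of the 8 control cells, 5 were LSC. A total of 705 dry eye cells and 1280 control cells held 50% of each library's Fabp5 UMIs.

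Free RNA adds UMIs to droplets whose cell does not make them, and it was not removed from the deposited counts. No class was sure to lack Fabp5, since macrophages can make it, so the Immune class with the fewest UMIs per cell served as the bound. Its 31 dry eye cells held 24 Fabp5 UMIs and its 20 control cells 4, at median depths of 918 and 1351 UMIs per cell. A Fabp5 UMI was seen in 54.8% of these cells in dry eye and 15% in control. Over all cells, the shares were 80.5% and 59.1%, at median depths of 9086.5 and 8248. The upper limit of the mean in Immune cells was 1.15 UMIs per cell in dry eye and 0.512 in control. After each library's limit was subtracted, Fabp5 was still higher in dry eye in all 8 classes.

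A second scale, added after the data were seen, was the corneal keratin gene Krt12. Per 100 Krt12 UMIs, Fabp5 had 257 UMIs in LSC*, 141 in LSC, 125 in TAC2*, 76.0 in Wing*, 75.0 in TAC1* and 2.14 in Basal cells of dry eye. Krt12 itself ranged from 7.13 UMIs per cell in Immune cells to 584 in Wing cells of dry eye, with 28.5 in LSC. The Fabp5 count per Krt12 UMI therefore moves with both genes. On this scale the ratio of dry eye over control was 6.05 in LSC and 80.9 in TAC1*, against 3.15 and 42.7 by CPM. The Immune cells held 10.9 in dry eye and 4.60 in control, against 14.7 and 1.90 over all cells of each library.

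Fabp4 was rare and came almost wholly from the dry eye library. It had 2179 UMIs, or 10.5 CPM, in dry eye and 51 UMIs, or 0.266 CPM, in control, a ratio of 39.5 (29.9 to 53.2). A UMI was found in 566 dry eye cells, 3.45% (3.17 to 3.74), and in 43 control cells, 0.246% (0.178 to 0.331). After thinning to 3000 UMIs, the shares were 1.35% in dry eye (1.17 to 1.54) and 0.0611% in control (0.0293 to 0.112). Fabp4 did not reach 20 CPM over all cells. Among 13100 genes with at least 100 UMIs, of which 3.02% were at least 2-fold higher in dry eye, it had the 26th highest ratio and Fabp5 the 84th.

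Starred cells held 76.1% of the Fabp4 UMIs of dry eye. They had 1658 UMIs in dry eye, or 55.8 CPM, and 0 UMIs in the 172 control cells, a ratio of 35.2 at the floor of 3 control counts, with an exact lower limit of 28.6. LSC* had 160 CPM in dry eye, Wing* 62.4, TAC2* 52.2, Squam* 39.0 and TAC1* 29.3. Only TAC1* had enough control cells to compare, with 179 UMIs in 473 dry eye cells and 0 in 133 control cells, a ratio of 14.1 at the same floor, with an exact lower limit of 11.3.

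Without starred cells Fabp4 remained higher in dry eye, with 521 UMIs, or 2.94 CPM, against 51 UMIs, or 0.269 CPM, in control, a ratio of 10.9 (8.18 to 14.9). Wing cells had 305 UMIs in dry eye and 30 in control, or 4.86 and 0.356 CPM, a ratio of 13.7 (9.38 to 20.6). Squam cells had 95 UMIs in dry eye and 2 in control, a ratio of 47.3 with a wide interval (12.7 to 396). TAC2 cells had 76 UMIs in dry eye and 7 in control, a ratio of 7.54 (3.49 to 19.4). Basal cells had 16 and 8 UMIs in dry eye and control, a ratio of 2.73 (1.10 to 7.36). LSC cells had 14 UMIs in dry eye and 0 in control, a ratio of 1.64 at the floor of 3, with an exact lower limit of 1.17. In TAC1, with 6 UMIs in dry eye and 0 in control and an exact lower limit of 0.937, and in Conj, with 9 and 4, no difference was detectable at this depth. With TAC1* cells joined to it, TAC1 had a ratio of 36.6 at the floor (exact lower limit 29.5). The interval lay above 1 in 6 of the 8 classes. Immune cells had 0 UMIs in both libraries, where 3 UMIs would be 60.0 CPM in dry eye and 84.6 CPM in control, so their level is not known within that range. Their upper limit of 0.119 Fabp4 UMIs per cell in dry eye and 0.184 in control exceeded the mean of most classes. After it was subtracted Fabp4 was higher in 1 of 8 classes, TAC1*, so free RNA was not bounded tightly enough for the others.

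**Figure D3:**
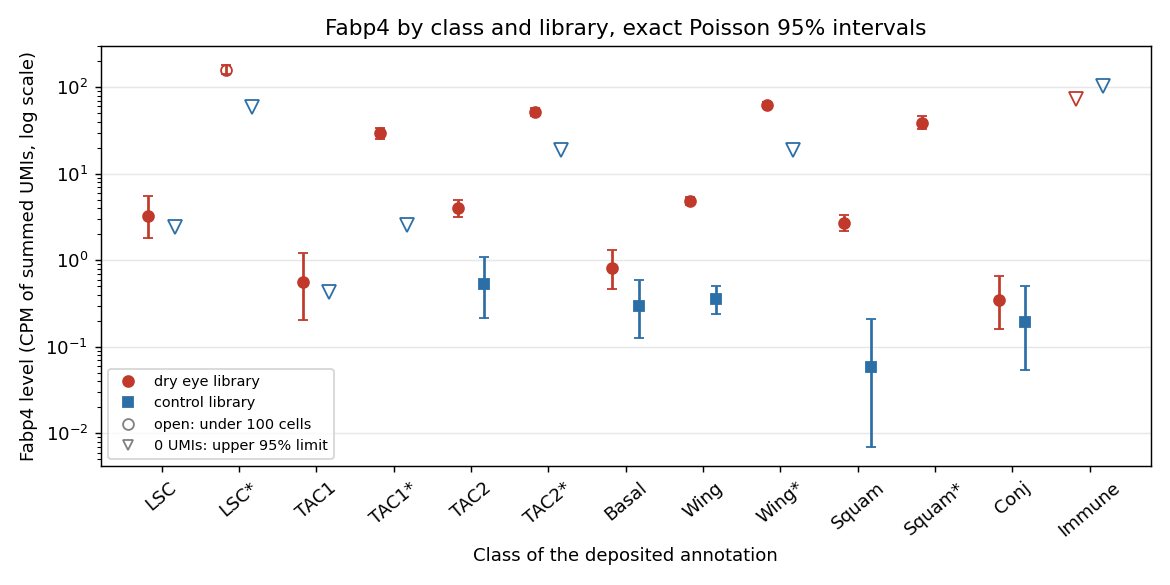
Fabp4 level in CPM of summed UMIs (log axis) by class, with dry eye as red circles left of control as blue squares, exact Poisson 95% intervals, open circles for under 100 cells, and open triangles at the upper 95% limit where a group had 0 UMIs. Starred classes of dry eye lie between 29.3 and 160 CPM, and the unstarred classes of dry eye with any UMI at or below 4.86 CPM.

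A few cells carried much of the Fabp4 signal. In dry eye 34 cells held 50% of its UMIs, and in LSC* 1 cell held 126 of 259. The highest control cell had 2 UMIs. The counting intervals treat each UMI as independent, so they are narrower than the spread between cells would make them. Leaving out the 10 cells highest in Fabp4 from each library gave a ratio of 44.4 over all cells (31.5 to 64.8), and 12.1 without starred cells as well (8.47 to 17.9). Over all cells, those left out held 27.3% of the Fabp4 UMIs of dry eye and 35.3% of those of control. The removal thus took a larger share from control, which raised the ratio. It cannot show how far the few high dry eye cells carry the difference.

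Cells with Fabp4 carried epithelial keratins, and most genes of other cell types were rare in them, as in the whole library. All 566 dry eye cells with a Fabp4 UMI also held UMIs of Krt5, the basal keratin, and of Krt12. These genes are common in every cell here, at 99.5% and 99.7% of the dry eye library, and Immune cells there also held 7.13 Krt12 UMIs on average. Ptprc, the common leukocyte gene, Lyz2, of macrophages, Flt1, of endothelium, and Retn, of adipocytes, were found in 0 of the 566. In the whole dry eye library they were found in 0.0670%, 0.0426%, 0.128% and 0.0244% of cells. At such shares 0 of 566 cells cannot show a lack. Pecam1, of endothelium, was found in 7, or 1.24% of them against 0.378% of all dry eye cells, and Egfl7 in 9, or 1.59% against 0.505%. Csf1r, of macrophages, was found in 1, or 0.177% against 0.0792%, and Cd74 in 2, or 0.353% against 0.317%. Cd68, a lysosomal gene used as a macrophage marker, was found in 135, or 23.9% against 14.2% of all dry eye cells. Cells with Fabp4 were deeper than the rest, and the part of these genes in the Fabp4 values was not tested. Of the 87 cells with at least 5 Fabp4 UMIs, 87 held Krt12, 24 held Cd68 and 2 held Pecam1.

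The marker lists of the cell types best known for Fabp4 were low in both libraries. Of 10 endothelial markers 5 were in the table, and they summed to 1.35 CPM in dry eye and 0.877 CPM in control, with 3 of the 4 measured members at least 1.5-fold higher in dry eye. Their part in the Fabp4 values was not tested. Of 10 adipocyte markers 5 were in the table, summing to 11.1 CPM in dry eye and 9.74 CPM in control, of which the lipase Lipe made up 10.5 and 8.69 CPM, and 0 of 2 measured members were higher. Lep had 0 UMIs in dry eye and 6 in control. All 12 macrophage and dendritic markers were in the table and summed to 25.5 CPM in dry eye and 27.4 CPM in control, of which Cd68 made up 14.9 and 15.4 CPM. Of 9 measured members 1 was higher and 2 lower. Over all genes with at least 20 UMIs, 9.39% were at least 1.5-fold higher in dry eye and 7.34% lower. These marker lists have too few measured members to set against those shares. Adgre1 had 0 UMIs in dry eye and 3 in control, and Cd207 0 and 11. Further defining markers, among them Adipoq, Cdh5 and Kdr, were not analysed here.

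Over all cells and in most classes, cells with Fabp4 were richer in Fabp5. In dry eye, cells with a Fabp4 UMI had a median Fabp5 level of 7185 CPM and the other cells 404 CPM, at median depths of 16187.5 and 8941 UMIs. The difference in depth alone makes a rare UMI easier to see, so both genes were counted after thinning to 3000 UMIs. Among unstarred cells the share with Fabp4 then ran from 0.128% of 5477 cells with 0 Fabp5 UMIs (0.0514 to 0.263) to 6.08% of 148 cells with 40 to 79 (2.82 to 11.2). Among starred cells it ran from 1.56% of 128 cells with 2 to 4 Fabp5 UMIs (0.190 to 5.53) to 21.5% of 79 cells with 80 or more (13.1 to 32.2). Wing cells alone showed the same order, with 0 of 352 cells at 0 Fabp5 UMIs, where 3 cells would make 0.852%, and 6.67% of 60 cells at 40 to 79 (1.85 to 16.2). With 20 to 39 Fabp5 UMIs the shares with Fabp4 were 9.23% of 509 starred cells (6.86 to 12.1) and 2.90% of 414 unstarred cells (1.51 to 5.01). At 40 to 79 the intervals of starred cells (7.04 to 12.5) and unstarred cells overlapped. TAC2 showed the widest gap, with a median Fabp5 level of 12637 CPM in its 30 cells with Fabp4 and 366 CPM in its 1779 other cells. Wing* was nearly level, at medians of 12492 CPM in cells with Fabp4 and 11564 CPM in the others. In Basal the summed level was 248 CPM in the 13 cells with Fabp4 and 403 CPM in the others, while the medians were 263 and 191 CPM.

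**Figure D4:**
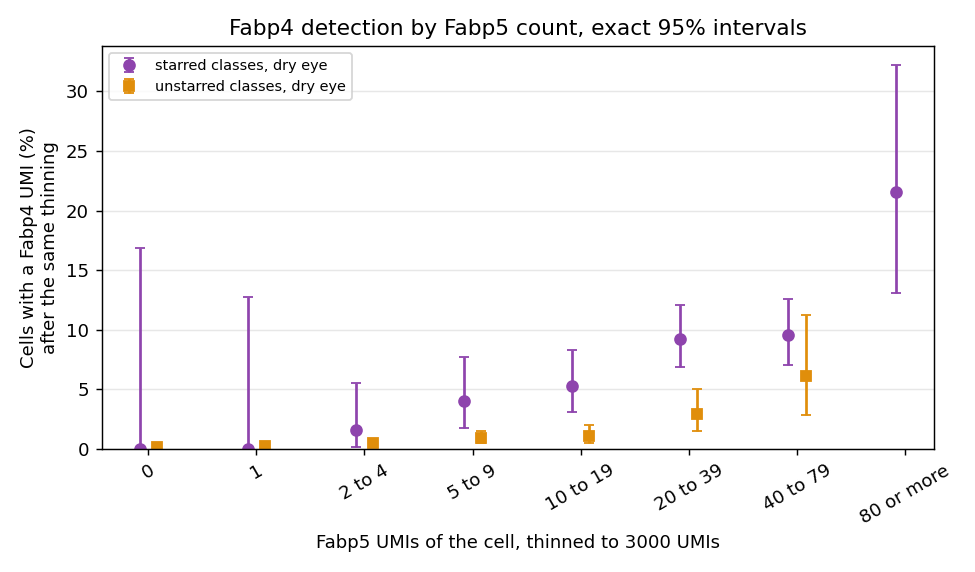
Share of dry eye cells with a Fabp4 UMI (vertical axis, percent) by the Fabp5 UMIs of the cell, both after thinning to 3000 UMIs, for starred classes (purple circles) and unstarred classes (orange squares) with exact 95% intervals. The share rises to 21.5% of starred cells at 80 or more Fabp5 UMIs and to 6.08% of unstarred cells at 40 to 79, and no unstarred point is drawn at 80 or more.

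Within the wider family, some members were higher in dry eye and others were not. The family list held the fatty acid-binding proteins and the cellular retinoid-binding proteins, which share their fold and hold retinol or retinoic acid. Of its 10 members in the table, 5 were at least 1.5-fold higher in dry eye and 1 at least 1.5-fold lower. The median log2 ratio of the list was 0.40, against -0.07 over all genes with at least 20 UMIs. Among 15237 such genes, 9.39% were at least 1.5-fold higher and 7.34% at least 1.5-fold lower. Since Fabp4 and Fabp5 are 2 of the 5, their part in this count was fixed by the choice.

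Crabp2, which brings retinoic acid to its nuclear receptor, had 864 UMIs in dry eye and 59 in control, a ratio of 13.5 (10.4 to 17.9). Its dry eye level was highest in LSC* at 56.9 CPM and Wing* at 33.6 CPM. Wing cells had 2.10 CPM in dry eye and 0.190 CPM in control. The Crabp2 ratio was 6.10 (4.61 to 8.21) without starred cells. Fabp12 had 44 UMIs in dry eye and 20 in control, a ratio of 2.03 (1.17 to 3.64). Its ratio without starred cells was 1.76, with an interval that included 1 (0.983 to 3.24). Fabp7, the brain member, went the other way with 29 UMIs in dry eye and 54 in control, a ratio of 0.497 (0.305 to 0.794). Fabp6, the ileal bile acid-binding member, had a ratio of 0.856 (0.838 to 0.874) at 78.9 CPM in dry eye and 92.2 CPM in control. Rbp2 had 1322 CPM in dry eye and 1524 CPM in control, a ratio of 0.867 (0.863 to 0.872). Fabp2, with 93 and 98 UMIs in dry eye and control, and Fabp3, with 30 and 36, had intervals that included 1.

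Ppard, the receptor that Fabp5 serves, had 17.5 CPM in dry eye and 13.7 CPM in control, a ratio of 1.27 (1.21 to 1.34). It was highest in LSC* of dry eye, at 40.2 CPM, followed by Squam* at 34.1 CPM, and Squam cells had 33.5 CPM in dry eye and 26.3 CPM in control. Ppara, the receptor linked to fatty acid oxidation, had 168 UMIs in dry eye and 275 in control, a ratio of 0.565 (0.464 to 0.687), and its coactivator Ppargc1a 70 and 156, a ratio of 0.415 (0.308 to 0.554). Pparg was not analysed here. Of 9 measured receptors and coactivators, 0 were at least 1.5-fold higher and 2 lower, too few to set against the 9.39% and 7.34% of all genes, and the highest was Ppargc1b at 1.37 (1.17 to 1.62).

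Among 17 measured PPAR target genes, 1 was at least 1.5-fold higher and 3 lower, with a median log2 ratio of -0.18, where 9.39% of all genes were higher and 7.34% lower. Counts this small are near that background and are not read as a result about PPAR targets. Angptl4, a secreted lipase inhibitor, had a ratio of 1.26 (1.14 to 1.39) over all cells and 1.03 (0.922 to 1.14) without starred cells. Plin2, the lipid droplet coat protein, had 19.8 CPM in dry eye and 28.7 CPM in control, a ratio of 0.688 (0.661 to 0.717). Cpt1a, which admits fatty acids to mitochondria, had a ratio of 0.599 (0.570 to 0.629). Cyp4a12a, a fatty acid hydroxylase, had 498 UMIs in dry eye and 2522 in control, a ratio of 0.183 (0.166 to 0.201). The gene above the bar was Cyp4a10, with 38 UMIs in dry eye and 23 in control and an interval that included 1 (0.887 to 2.69).

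Most genes of fatty acid handling were near even. Over all genes with at least 20 UMIs, 9.39% were at least 1.5-fold higher and 7.34% lower. The counts of the lists that follow are small and near those shares, so they are not read as a result about these lists. Of 20 measured genes of fatty acid oxidation, 0 were at least 1.5-fold higher and 1, Cpt1a, lower, with Hadha highest at 1.06 and Acads next at 1.02. Cpt1b had a ratio of 0.691 (0.505 to 0.944). Of 12 acyl-CoA synthetases and binding proteins, 0 were higher and 1 lower, from Acot2 at 0.616 and Acsl1 at 0.799 up to Acot1 at 1.25 and Acsl4 at 1.34. Of 9 uptake genes 1 was higher, the transporter-like Slc27a3, with 1061 UMIs in dry eye and 196 in control, a ratio of 5.01 (4.30 to 5.86). Its ratio was 2.91 (2.45 to 3.47) without starred cells. Mfsd2a had a ratio of 1.38, Slc27a1 of 0.756 and Slc27a6 of 0.735. Cd36, the fatty acid translocase, had 6 UMIs in dry eye and 8 in control. Of 13 lipid droplet genes 1 was higher, Cidea, a droplet protein of sebaceous and brown fat cells, with 626 UMIs in dry eye and 217 in control, a ratio of 2.67 (2.28 to 3.13). G0s2 had a ratio of 1.35 and Cideb of 0.765.

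The lists with more members above the bar were those of barrier lipids and eicosanoids. Over all genes with at least 20 UMIs, 9.39% were at least 1.5-fold higher and 7.34% lower. Of 20 measured genes of ceramide and barrier lipids, 7 were at least 1.5-fold higher and 0 lower, with a median log2 ratio of 0.23. Abca12, which loads barrier lipids into lamellar bodies in skin, had 77 UMIs in dry eye and 3 in control, a ratio of 23.7 (7.83 to 118). Elovl4, which makes very long-chain fatty acids for skin ceramides, had 525 UMIs in dry eye and 27 in control, a ratio of 18.0 (12.2 to 27.6). Alox12b, a lipoxygenase of the same pathway, had 444 UMIs in dry eye and 29 in control, a ratio of 14.2 (9.72 to 21.4), and was singled out after its value was seen. Without starred cells their ratios were 5.70 (1.63 to 30.5), 11.2 (7.57 to 17.4) and 12.2 (8.37 to 18.6). The lowest ratios of the list were those of Sptlc1, a subunit of the enzyme that starts ceramide synthesis, at 0.846 and Sgpp1 at 0.731. Elovl4 also counts in the synthesis list, where 2 of 18 genes were higher, the other being Fads3 at 4.88 (4.07 to 5.89). The synthesis count is near the share over all genes and is not read as a result. In that list Srebf1, the master regulator of lipid synthesis, had a ratio of 0.668 (0.640 to 0.697) and Scd2 of 0.720 (0.713 to 0.727).

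Of 13 measured eicosanoid genes, 5 were at least 1.5-fold higher and 1 lower, where 9.39% of all genes were higher and 7.34% lower. The median log2 ratio of the list was 0.27. Ptgs2, the inducible cyclooxygenase, had 334 UMIs in dry eye and 5 in control, a ratio of 61.8 (26.2 to 192). Ptges, which makes prostaglandin E2 from its product, had 4234 and 657 UMIs in dry eye and control, a ratio of 5.96 (5.49 to 6.48). Both were highest in LSC* of dry eye, as Fabp5 and Fabp4 were. With starred cells left out, Ptgs2 had a ratio of 20.5 (8.50 to 64.7) and Ptges of 3.80 (3.48 to 4.16). Alox12 was lower at 0.633 (0.607 to 0.659), and Ephx2 had a ratio of 0.804 (0.775 to 0.834). Without starred cells 7.32% of 15087 genes were at least 1.5-fold higher and 5.44% lower, and the barrier list had 5 of 19 genes higher and the eicosanoid list 5 of 13.

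**Figure D5:**
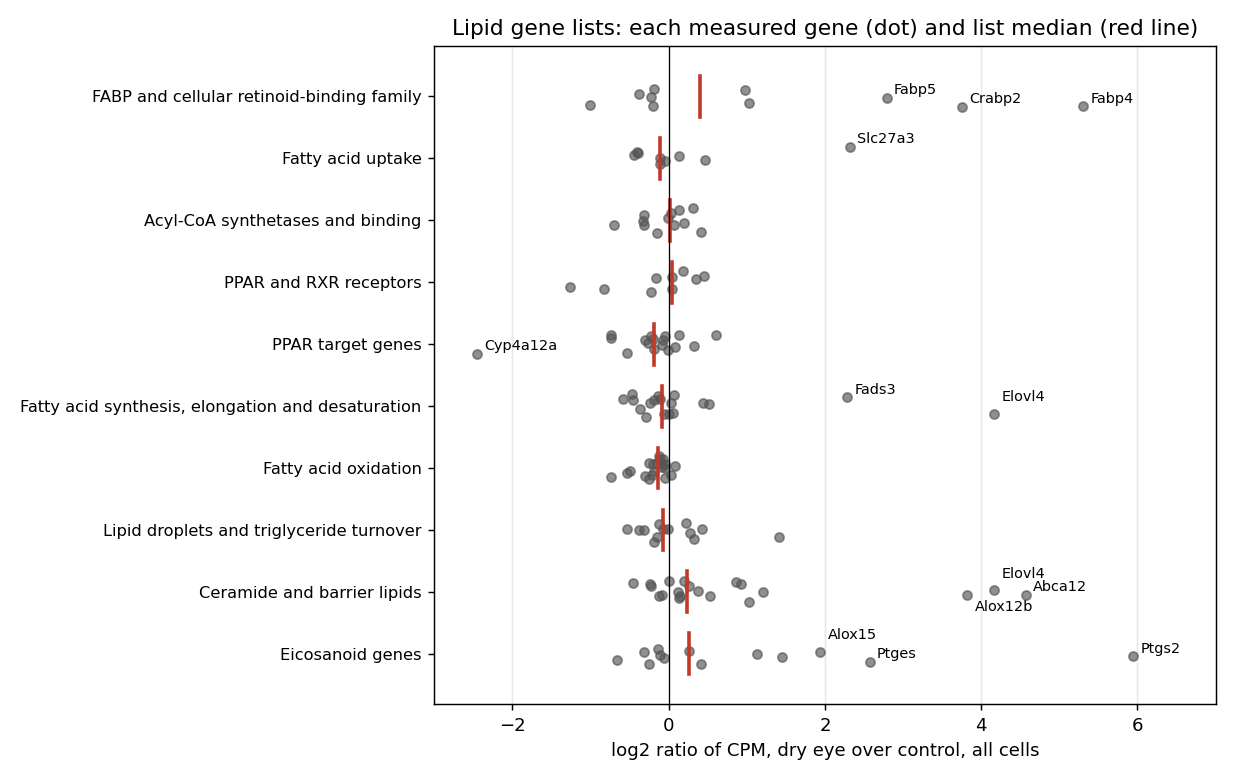
Log2 ratio of dry eye over control CPM over all cells (horizontal axis) for each measured gene (dot) of the 10 lists of lipid handling (rows), with the list median as a red line and outlying genes named. Most dots lie near 0, while Fabp4, Fabp5, Crabp2, Elovl4, Alox12b, Abca12, Ptgs2, Ptges, Fads3 and Slc27a3 lie far to the right and Cyp4a12a to the left.

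Markers of epidermal keratinocytes, the cell type Fabp5 is named for, moved partly with it. Of 10 such markers 5 were at least 1.5-fold higher in dry eye, against 9.39% of all genes, with a median log2 ratio of 1.48. Without starred cells 5 of 10 were, against 7.32% of all genes, with a median of 0.92. Dmkn had a ratio of 49.7 (43.5 to 57.1), Flg of 15.5 (6.40 to 49.1), Ly6d of 10.7 (9.83 to 11.6), Sbsn of 7.03 (6.66 to 7.43) and Krtdap of 5.29 (3.87 to 7.38). Leaving out starred cells gave 5.11 (4.41 to 5.94) for Dmkn, 13.9 (5.66 to 44.2) for Flg and 3.27 (2.98 to 3.59) for Ly6d. Sbsn then had 3.02 (2.85 to 3.21) and Krtdap 3.28 (2.34 to 4.66). Krt1 had a ratio of 0.800, Krt77 of 0.684 and Calml3 of 0.794, and Krt10 of 1.21. The list summed to 3587 CPM in dry eye and 4330 CPM in control, most of it Calml3. Of 7 limbal markers 5, and of 10 S phase genes 7, were at least 1.5-fold higher in dry eye, against the same 9.39%. Without starred cells 6 of 7 and 3 of 10 were, against 7.32%. LSC cells made up 3.61% of the dry eye library and 1.53% of control. Other lists also had members above the bar. Of 10 mitosis genes 4, and of 9 squamous markers 4, were higher with or without starred cells. The conjunctival list had 1 of 7 higher, or 3 of 7 without starred cells, and the corneal list 0 of 6 either way. The part of these lists in the Fabp5 values was not tested.

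Across classes, Fabp5 and Fabp4 followed each other. Over 20 groups of 1 class in 1 library with at least 50 cells each, log2(CPM + 1) of Fabp5 and Fabp4 had a Pearson correlation of 0.88, and of 0.90 over the 12 dry eye groups. These groups share 2 libraries, their depth and their free RNA, so the values only describe the pattern. Ribosomal protein, mitochondrial, haemoglobin, Gm and Rik genes were left out of the ranking that follows. By this correlation, the genes most like Fabp5 were Tnfrsf1a, a TNF receptor, at 0.94 and Stom, a membrane protein, at 0.93. After them came Ssr4, Nupr1, Ap1s1, Rbpms, Ilrun and Ap2m1, at 0.87 to 0.92. The genes most like Fabp4 were Urah at 0.96, Pgs1 at 0.95 and Atf4, a stress-response transcription factor, at 0.94. After them came Akr1b8, Sec61g, Sar1a, Ilrun and Arf4, at 0.92 to 0.94. Apart from Nupr1 and Akr1b8, their ratios of dry eye over control lay between 1.09 (Sar1a) and 2.22 (Stom). Tnfrsf1a had 64.8 CPM in dry eye and 41.5 CPM in control, a ratio of 1.56 (1.52 to 1.60). Nupr1 had a ratio of 3.85 (3.64 to 4.08) and Akr1b8 of 7.99 (7.35 to 8.70). Their ratios without starred cells were 2.70 and 3.55.

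Single Wing cells of dry eye gave other companions. Over 3291 Wing cells thinned to 3000 UMIs, an ordering chosen after the data were seen, the genes most correlated with Fabp5 were Sfn at 0.48, Sprr1a at 0.48, Krt16 at 0.43, Anxa1 at 0.39 and Krt14 at 0.36. Sprr1a encodes a cornified envelope precursor and Krt16 a keratin of wounded epithelium. In Wing cells Sprr1a had 680 CPM in dry eye and 22.2 CPM in control, and Krt16 325 and 12.9 CPM. Krt14 had 577 CPM in dry eye and 27.9 CPM in control. The lowest correlations were with Lypd2 at -0.38 and Cdo1 at -0.37, and Lypd2 had 11304 CPM in dry eye Wing cells and 13693 CPM in control. Fabp4 correlated with Fabp5 at 0.13 over these cells, where most cells had no Fabp4 UMI, so that value is weak and is no finding.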

How the data were processed

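Corneal epithelium was released with enzyme G and 0.25% trypsin, and libraries were made with a 10x 3′ kit, per the labels' protocols. Per the submitters' processing notes, Cell Ranger 6.0.1, Seurat 4 and the build mm10 were used, with no role or order given. The deposited matrix holds UMI counts per gene and cell, and a deposited table gives each cell's library and class. Cells were used as deposited, no doublet caller was run, and free RNA was not removed.

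Counts were summed per class and library and divided by the total (CPM). Ratios have exact Clopper-Pearson 95% intervals, and levels exact Poisson intervals. The calculation was tested on simulated data, drawn as independent Poisson counts per gene. Such data lack the clumping of UMIs in few cells, so the test cannot show how the intervals behave under it. Fabp4, Fabp5 and the gene lists were chosen with earlier results of these data known. Other named genes are family members, the 8 most like each member (Pearson correlation of log2(CPM + 1), genes with at least 100 UMIs and 20 CPM), the 2 highest and 2 lowest ratios of each list among genes with at least 50 UMIs, and Ppard, Pparg, Angptl4, Plin2, Cd36 and Crabp2. Left out of the 8 were mitochondrial, ribosomal protein and haemoglobin genes, and symbols that start with Gm and digits or end in Rik. One family member is not reported here. Others were chosen after their values were seen, namely the single-cell companions, marker genes and Alox12b. Python 3.11.15, numpy 2.4.6, scipy 1.17.1, pandas 2.3.3 and matplotlib 3.10.9 were used.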

Additional observations from a re-analysis of the deposited data

How the results depend on the processing

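No paired analysis was possible because each group was 1 pooled library, and for the same reason no replicate could be left out. No ratio changed direction under the alternatives tried. The Fabp5 ratio over all cells, 6.92, was 3.70 without starred classes, 6.16 as the mean of each cell's CPM, 6.86 without the 5% of cells with the most UMIs and 6.86 with dry eye classes weighted to control shares. It was 6.84 with totals that leave out the 20 most abundant genes and 6.82 without the 10 cells highest in Fabp5. For the weighting to control shares, starred cells were joined to the class of their name. That weighting therefore did not adjust for the larger share of starred cells in dry eye. The Fabp4 ratio, 39.5, was 10.9 without starred classes and 37.8 to 51.9 under the alternatives that kept starred classes. Added after seeing the data, the ratios without starred classes and the 10 top cells were 3.65 for Fabp5 and 12.1 for Fabp4, and without cells whose barcode is in both libraries 6.92 and 39.3. With starred cells joined to their class, the Fabp5 ratio was 5.47 in LSC, 25.4 in TAC1, 17.4 in TAC2, 5.94 in Wing and 12.5 in Squam. The Fabp4 ratio was then 31.3 in TAC2, 39.3 in Wing and 107 in Squam, and at the floor 24.2 in LSC and 36.6 in TAC1. Per Krt12 UMI, added later, the Fabp5 ratio was 6.05 in LSC, 80.9 in TAC1* and 4.49 in Squam. Subtraction of the free RNA bound left Fabp4 higher in 1 of 8 classes, and the bound is wide because it rests on 31 dry eye and 20 control cells. The genes most like the members depended on the groups used. Of the 8 for Fabp5, 2 were shared with groups of at least 20 cells, 4 with dry eye groups alone and 0 with single Wing cells, the last added later. Of the 8 for Fabp4, 3 were shared under Spearman correlation, 2 with groups of at least 20 cells and 4 with dry eye groups alone. The cause of these shifts was not tested. Depth limits Fabp4 in control, where 51 UMIs were counted in all.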
